A study of Bos taurus with 7 samples.

Results

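A set of 10 genes that write, erase or protect DNA methylation was followed through bovine preantral follicles, out of 23704 genes with a symbol. The set held 4 writers (*DNMT1*, *DNMT3A*, *DNMT3B* and *UHRF1*), 3 erasers (*TET1*, *TET2* and *TET3*) and 3 protectors or imprint regulators (*KDM1B*, *DPPA3* and *CTCFL*). Members were chosen by name, on the values of these same libraries, because the fall of *CTCFL* and *DPPA3* between the stages was already known. For those 2 genes the values are therefore a description with no test.

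Follicles were isolated mechanically from abattoir ovaries of young Holstein Friesian dairy cows and sorted by sieving. Secondary follicles (SF, 3 libraries), whose oocyte is wrapped in several layers of granulosa cells, were compared with primary follicles (PF, 4 libraries), which carry a single layer of cuboidal granulosa cells. Both stages were taken before any growth culture, and both had passed a short recovery in medium with insulin, transferrin, selenium and FSH before lysis. Each library pooled many whole follicles, so that oocyte and granulosa RNA were read together. The study set PF replicate 4 aside as an outlier, and it is likewise left out of the means, folds and tests here. Its levels are printed for the members and for the called pathway genes named below. The study calls its pools biological replicates, but how the animals were divided over the libraries is not stated in the sources used here. The p-values therefore describe the spread among these libraries alone, in which animal and technical spread cannot be told apart.

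Methyl groups on cytosine are copied at replication by *DNMT1*, which *UHRF1* guides to hemimethylated sites, and are placed anew by *DNMT3A* and *DNMT3B*. The TET enzymes oxidise the mark, which opens the way to its removal. In the mouse, oocytes lay down most of their methylation, maternal imprints included, while they grow inside preantral and antral follicles. There *Dnmt3a* does the writing, *Kdm1b* clears a histone mark that blocks it, and *Dppa3* shields the maternal genome from *Tet3* after fertilisation.

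Total depth lay between 18788105 and 23764615 estimated counts per library, of which the 10 members held 4303.6 to 10503.7, or 0.0181% to 0.0477%. Levels are given as TPM, an abundance that allows for transcript length and scales each library to the same total. The check of the labels used marker lists. Summed TPM of the oocyte markers (24 of 25 listed genes were in the table) ran from 391.6 to 2807 in SF and from 4419 to 8581 in PF replicates 1 to 3, with 743.9 in PF replicate 4. Summed TPM of the granulosa markers (20 of 21) ran from 8141 to 8982 in SF and from 2378 to 3505 in those PF libraries. No oocyte marker was at 0 throughout either stage, and among the granulosa markers *NR5A2* alone was at 0 in PF replicates 1 to 3. Stromal fibroblast markers (11 of 12) summed to 6329 TPM in PF replicate 4, whereas SF held 222.1 to 525.6 TPM and PF replicates 1 to 3 held 424.7 to 617.5 TPM. In a pool of whole follicles, fewer cells of a type and less RNA per cell cannot be told apart.

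The members spanned a wide range of levels. By mean TPM in SF the order was *UHRF1* (34.2), *DNMT1* (15.5), *DPPA3* (14.0), *TET2* (10.5), *KDM1B* (7.97), *DNMT3A* (2.91), *TET1* (0.887), *TET3* (0.614), *DNMT3B* (0.462) and *CTCFL* (0.0179). By mean TPM in PF it was *UHRF1* (64.3), *DPPA3* (43.4), *DNMT1* (22.4), *KDM1B* (19.8), *TET2* (4.28), *CTCFL* (3.03), *DNMT3A* (2.61), *TET3* (1.33), *DNMT3B* (0.879) and *TET1* (0.234). Neighbours from *UHRF1* down to *KDM1B* had overlapping library values in SF, as did *TET1*, *TET3* and *DNMT3B*. In PF, *UHRF1* lay above *DPPA3*, and *KDM1B* above *TET2*, in each of replicates 1 to 3, while the library values of *DNMT1* and *KDM1B* overlapped. The mean of *UHRF1* exceeded that of 79.3% of genes in SF and of 86.0% in PF, and the mean of *DNMT3B* that of 24.8% in SF and 28.0% in PF.

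**Figure D1:**
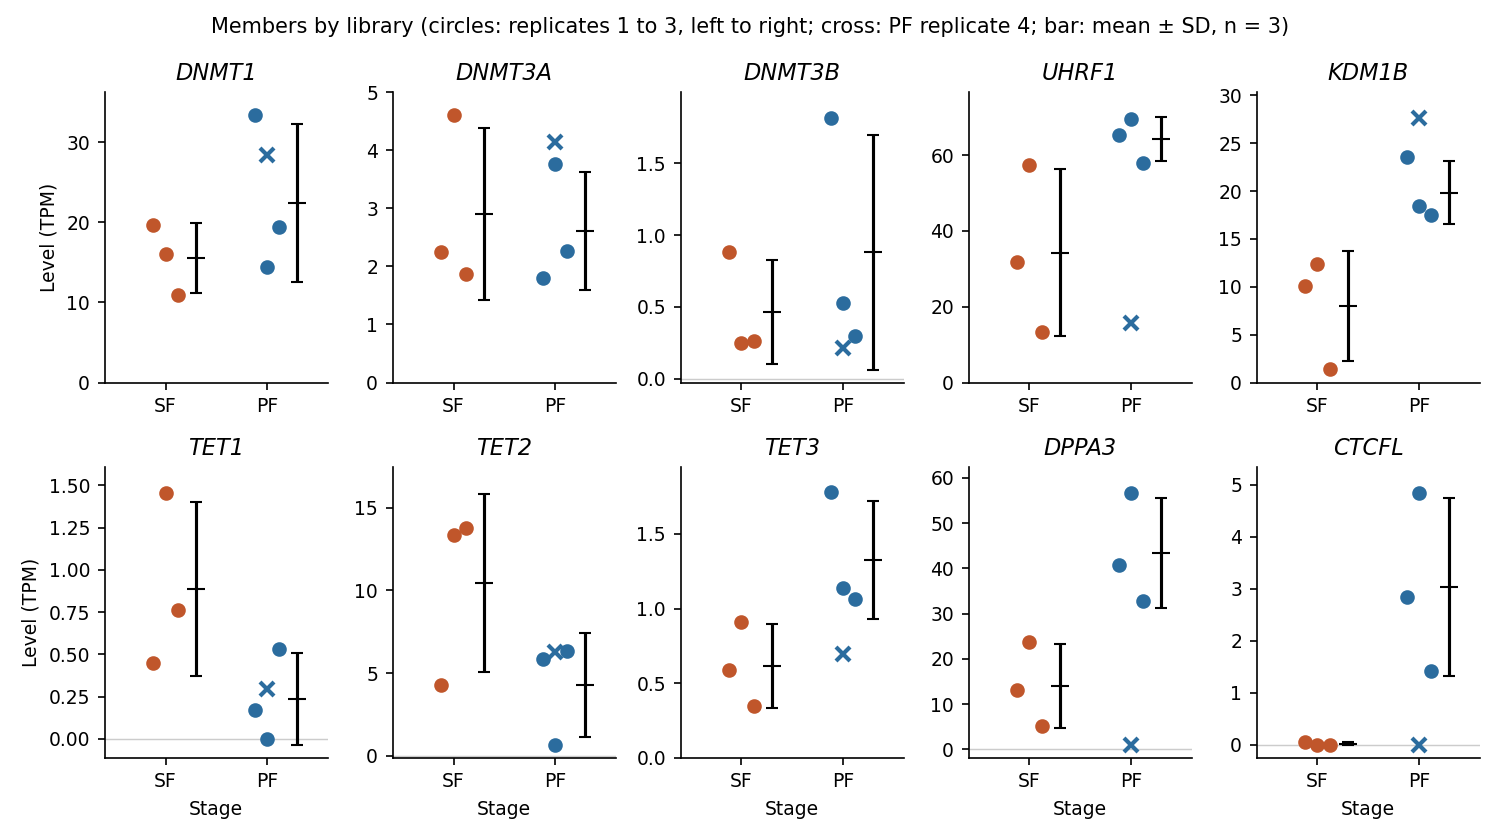
Level of each of the 10 members in every library, in TPM on a linear axis that includes 0, with SF left of PF in each panel. Circles are replicates 1 to 3, the cross is PF replicate 4, and the bar is the mean ± SD (n = 3). The circles of *UHRF1*, *TET3*, *KDM1B*, *DPPA3* and *CTCFL* do not overlap between stages, and those of the other 5 genes do.

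No member was called higher in SF and 2 were called lower, *CTCFL* and *DPPA3*, in the Wald test of DESeq2 at an adjusted p below 0.05 over 15056 genes. Across all those genes 8.14% were called higher and 11.0% lower. Because the fall of these 2 genes put them in the set, nothing is read from that count. None of the other 8 members passed, and 1 of the 8 (*TET3*) had an unadjusted p below 0.05. Across all genes 4800 had an unadjusted p below 0.05 in that test, where 15056 had an adjusted p. Nothing is therefore read from the unadjusted p of *TET3*. The quasi-likelihood test of edgeR called 0 of 14293 genes (3844 had an unadjusted p below 0.05), and so 0 of the 10 members, 2 of which had an unadjusted p below 0.05. In TPM, 5 of the 10 members had all 3 SF libraries below all 3 PF libraries, a pattern held by 18.5% of the genes tested, and 0 had all 3 SF libraries above. With PF replicate 4 counted in, 1 of the 5 (*KDM1B*) kept that pattern. Among all genes, neither the pattern with SF above nor the one with PF replicate 4 was counted. Nothing is therefore read from these 2 counts. The median log2 fold change (SF over PF) was -0.78 over the 10 members and 0.02 over all genes tested. *CTCFL* and *DPPA3*, chosen for their fall, enter both the 5 members above and this median, so nothing is read from either figure.

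Among the writers, *UHRF1* was the most abundant. *UHRF1* binds hemimethylated DNA and recruits *DNMT1* to it. *UHRF1* stood at 31.9, 57.3 and 13.4 TPM in SF replicates 1 to 3, against 65.4, 69.4 and 58.0 TPM in PF replicates 1 to 3 and 15.7 TPM in PF replicate 4. The PF libraries sat close together and the SF libraries ranged widely, without reaching the lowest of the 3 PF values. Means were 34.2 ± 22.0 TPM in SF and 64.3 ± 5.80 TPM in PF (SD, n = 3 each). The log2 fold change was -0.86 ± 0.49 (SE; DESeq2 adjusted p = 0.22), with a 95% interval of -1.82 to 0.11. Without SF replicate 2, the SF library with the highest level, it was -1.36 ± 0.47 and passed (DESeq2 adjusted p = 0.0336).

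*DNMT1*, the maintenance methyltransferase, was measured at 19.7, 16.0 and 10.9 TPM in SF, against 33.4, 14.4 and 19.4 TPM in PF and 28.4 TPM in PF replicate 4. The stages overlapped, since PF replicate 2 fell below SF replicates 1 and 2. Means were 15.5 ± 4.38 TPM in SF and 22.4 ± 9.86 TPM in PF (SD, n = 3 each), and the log2 fold change was -0.43 ± 0.41 (DESeq2 adjusted p = 0.509; 95% interval -1.24 to 0.38). The ratio of *DNMT1* to *UHRF1* within a library was 0.617, 0.279 and 0.814 in SF, against 0.511, 0.207 and 0.335 in PF, and 1.81 in PF replicate 4. This ratio also overlapped between the stages, and only in PF replicate 4 did *DNMT1* exceed *UHRF1*.

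*DNMT3A*, a de novo methyltransferase, was present at 2.24, 4.61 and 1.86 TPM in SF, against 1.81, 3.76 and 2.27 TPM in PF and 4.15 TPM in PF replicate 4. These levels rested on 259.6 to 625.8 estimated counts in SF and 251.1 to 534.3 in PF. The log2 fold change was 0.23 ± 0.52 (DESeq2 adjusted p = 0.807; 95% interval -0.79 to 1.26). Its sign was not settled, being -0.15 when SF replicate 2 was left out, -0.04 when PF replicate 1 was left out and -0.06 when PF replicate 4 was added.

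*DNMT3B*, the other de novo methyltransferase, was the least abundant writer. Its 0.880, 0.245 and 0.261 TPM in SF stood for 60.7, 13.4 and 15.5 estimated counts. In PF its levels of 1.81, 0.527 and 0.297 TPM stood for 105, 30.2 and 17.0 counts, and PF replicate 4 had 0.215 TPM from 11.0 counts. Replicate 1 was the highest library in each stage. The log2 fold change of -0.70 ± 1.10 (DESeq2 adjusted p = 0.711; 95% interval -2.85 to 1.45) was 0.25 without PF replicate 1, and its interval left both directions possible. Within a library *DNMT3B* stood at 0.392, 0.0532 and 0.140 of the *DNMT3A* level in SF, against 1.00, 0.140 and 0.130 in PF and 0.0519 in PF replicate 4. *DNMT1* made up 76.7% to 86.3% of the summed level of the 3 methyltransferases in SF and 77.0% to 90.2% in PF replicates 1 to 3. Maintenance transcripts thus outweighed de novo transcripts in each library.

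None of the 3 erasers passed the DESeq2 test, with *TET2* and *TET1* having higher means in SF and *TET3* a lower one. *TET3*, the dioxygenase that the mouse oocyte stores for the zygote, had 0.587, 0.910 and 0.347 TPM in SF, against 1.78, 1.14 and 1.06 TPM in PF and 0.698 TPM in PF replicate 4. The 3 SF libraries lay below PF replicates 1 to 3, though 1 of them lay above PF replicate 4. Means were 0.614 ± 0.283 TPM in SF and 1.33 ± 0.395 TPM in PF (SD, n = 3 each). The log2 fold change of -1.02 ± 0.52 did not pass (DESeq2 adjusted p = 0.156).

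*TET2*, the family member that lacks a DNA-binding CXXC domain of its own, was the most abundant eraser in each library but PF replicate 2. It measured 4.26, 13.4 and 13.8 TPM in SF, against 5.86, 0.628 and 6.35 TPM in PF and 6.27 TPM in PF replicate 4. SF replicates 2 and 3 lay above each PF library, while SF replicate 1 lay among them. Means were 10.5 ± 5.38 TPM in SF and 4.28 ± 3.17 TPM in PF (SD, n = 3 each), with a log2 fold change of 1.37 ± 0.84 (DESeq2 adjusted p = 0.251; 95% interval -0.27 to 3.01).

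*TET1*, which carries a CXXC domain and acts in mouse germ cells, had 0.446, 1.46 and 0.760 TPM in SF, against 0.171, 0 and 0.532 TPM in PF and 0.293 TPM in PF replicate 4. In estimated counts this was 94.4, 256 and 138 in SF, against 31.1, 0 and 97.0 in PF. The count of 0 in PF replicate 2 allows up to 3 counts, or 0.0162 TPM, for counting error only. SF replicate 1 lay below PF replicate 3, so the stages overlapped. The log2 fold change was 1.88 ± 1.44 (DESeq2 adjusted p = 0.384; 95% interval -0.94 to 4.69), was 3.62 ± 1.52 without PF replicate 3 and was 1.28 ± 0.92 without PF replicate 2. It passed in neither case (DESeq2 adjusted p = 0.0623 and 0.384). PF replicate 2 was low for long transcripts at large. Over 178 genes with an average effective length of 9000 bases or more, its median log2 level relative to PF replicates 1 and 3 was -0.52, against 0.05 over 13585 genes. All listed transcripts of the TET genes exceeded that length. In PF replicate 2, *TET1* and *TET2* (0.628 TPM) lay below PF replicates 1 and 3, while *TET3* (1.14 TPM) lay between them. The part of this length difference in the TET values was not tested.

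Within libraries the TET family had a different balance in the stages, described here with no test. *TET3* formed 11.1%, 5.78% and 2.33% of the summed TET level in SF, against 22.8%, 64.4% and 13.4% in PF and 9.61% in PF replicate 4. The ratio of *TET2* to *TET3* was 7.26, 14.7 and 39.8 in SF, against 3.29, 0.552 and 5.97 in PF and 8.99 in PF replicate 4. The ratio of *TET1* to *TET3* was 0.760, 1.60 and 2.19 in SF, against 0.0958, 0 and 0.500 in PF and 0.420 in PF replicate 4. For all 3 measures SF and PF replicates 1 to 3 did not overlap, and PF replicate 4 lay within the SF range for the first 2. All 3 contain *TET3*, so they are not separate observations, and all use PF replicate 2, low for long transcripts. How often such ratios fail to overlap among all genes was not counted. Such ratios do not depend on how libraries are scaled to each other. They do move with the mix of cells, and oocyte marker levels differed between the stages as given above.

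The protectors had their highest levels in PF. *KDM1B*, a histone demethylase needed for maternal imprints in the mouse, had 10.1, 12.4 and 1.44 TPM in SF, against 23.6, 18.5 and 17.5 TPM in PF and 27.6 TPM in PF replicate 4. It was the member whose 3 SF libraries lay below all 4 PF libraries. Means were 7.97 ± 5.77 TPM in SF and 19.8 ± 3.28 TPM in PF (SD, n = 3 each), and the log2 fold change was -1.28 ± 0.68 (DESeq2 adjusted p = 0.176; 95% interval -2.61 to 0.05). SF replicate 3 had the lowest *KDM1B* level and the lowest oocyte marker sum. PF replicate 4 had the next lowest oocyte marker sum, the highest stromal marker sum (6329 TPM) and the highest *KDM1B* level. The part of the cell mix in these *KDM1B* levels was not tested. Without SF replicate 3 the log2 fold change was -0.77 ± 0.27 and passed (DESeq2 adjusted p = 0.0327).

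*DPPA3* (STELLA) is an oocyte and early germ cell protein that protects maternal methylation in mouse zygotes. It had 13.1, 23.6 and 5.28 TPM in SF, against 40.7, 56.6 and 32.8 TPM in PF and 0.924 TPM, from 18.0 estimated counts, in PF replicate 4. The SF values lay below PF replicates 1 to 3 and above PF replicate 4. Means were 14.0 ± 9.21 TPM in SF and 43.4 ± 12.1 TPM in PF (SD, n = 3 each), with a log2 fold change of -1.56 ± 0.55. With PF replicate 4 kept it was -1.18 ± 1.01. With each of the 6 libraries left out in turn it lay between -2.07 and -1.17. The count of 2 members called lower, given above, was 1 without SF replicate 1, PF replicate 1 or PF replicate 2.

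*CTCFL* (BORIS), a paralog of the insulator protein *CTCF* known chiefly from the testis, had 0.0536, 0 and 0 TPM in SF, against 2.83, 4.84 and 1.42 TPM in PF and 0 TPM in PF replicate 4. These were 3, 0 and 0 estimated counts in SF, against 121, 230 and 65.1 in PF and 0 in PF replicate 4. A count of 0 allows up to 0.0677 TPM in SF replicate 2, 0.0658 TPM in SF replicate 3 and 0.0721 TPM in PF replicate 4. Summed counts were 3 in SF and 417 in PF replicates 1 to 3, a PF-over-SF ratio of 133 with an exact 95% interval of 45.3 to 648.6. The interval covers counting error only and is no test of the stages, since *CTCFL* was chosen for this difference and PF replicate 4 had no count. PF replicate 4 was thus like SF, and the gene was seen in 3 of the 4 PF libraries. Since *CTCFL* and *CTCF* share similar zinc fingers, reads from that stretch could be split between them.

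Oocyte and granulosa markers also differed between the stages. Of 24 oocyte markers tested, 17 were called lower in SF and 0 higher, with a median log2 fold change of -2.07. Of 17 granulosa markers tested, 11 were called higher and 0 lower, with a median of 1.56. PF replicate 4, with 0.924 TPM of *DPPA3* and no count of *CTCFL*, had a mean log2(TPM + 1) over the oocyte markers of 3.96, within the SF range of 3.07 to 5.26 and below the 6.14 to 7.16 of PF replicates 1 to 3. In that same library *KDM1B* (27.6 TPM) was at its highest and *DNMT1* (28.4 TPM) was above each SF library. The part of the oocyte share in the member values was not tested. Scaled instead by size factors from the oocyte markers, the log2 fold changes of all genes moved by a median of 2.58. Every member but *CTCFL* then had a positive log2 fold change. Among these were 0.60 for *DPPA3*, 0.61 for *KDM1B*, 1.29 for *UHRF1*, 1.33 for *TET3* and 2.06 for *DNMT1*. *DNMT3A* (2.64), *TET2* (4.19), *TET1* (4.23) and *DNMT1* passed as higher on that scale. All of these values but those of *TET1* and *TET2* lay under the median log2 fold change of all genes on that scale, 2.66. Under size factors from the granulosa markers the log2 fold changes of all genes moved by a median of -1.65. On that scale 6 members passed as lower while *TET1* alone had a positive value (0.30). Of all genes tested, 9007 were called higher and 37 lower with oocyte scaling, and 88 higher and 8356 lower with granulosa scaling, beside 1226 higher and 1650 lower with all genes as the base. Relative to the median of all genes, *TET1* and *TET2* had the highest values on each of the 3 scales and *CTCFL* the lowest.

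**Figure D2:**
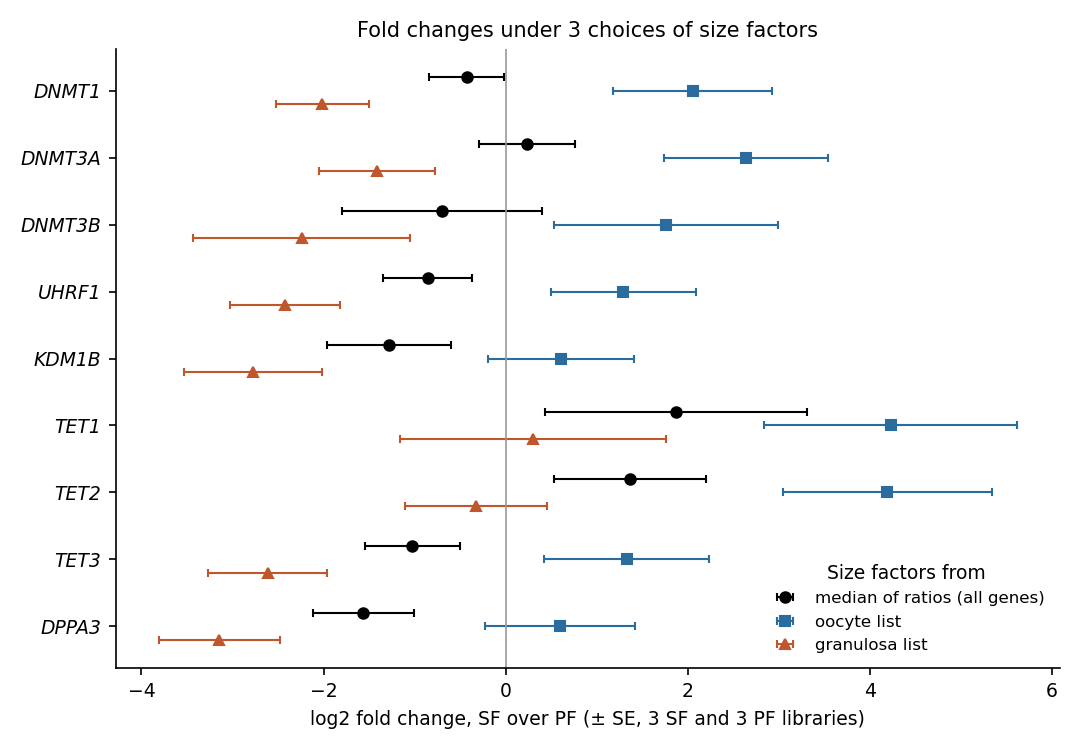
Log2 fold change, SF over PF, of 9 members under size factors from all genes, from the oocyte marker list and from the granulosa marker list. Points are estimates and bars are the SE (3 SF and 3 PF libraries); *CTCFL* is left out because its fitted fold depends on zeros. Values of *DPPA3* run from -3.14 with granulosa scaling to 0.60 with oocyte scaling, while *TET1* stays above 0 on all 3 scales.

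The number in a library's name lies below 40 for SF replicate 1 and PF replicates 1 and 2, and above 40 for the rest. The labels do not say what it stands for. The ratio of mean TPM, SF over PF, was 0.473 below 40 and 0.609 above for *UHRF1*, 0.402 and 0.591 for *TET3*, and 0.481 and 0.396 for *KDM1B*. It was 0.269 and 0.440 for *DPPA3*, 0.823 and 0.694 for *DNMT1*, and 0.752 and 0.854 for *DNMT3B*. *TET2* (1.31 and 2.14) and *TET1* (5.23 and 2.08) had ratios above 1 in both classes. *DNMT3A* was the member that turned, with 0.806 below 40 and 1.42 above. With 1 SF library below 40 and 1 PF library above it (PF replicate 4 left out), no spread can be given within these classes.

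Gene sums can hide a change between the transcripts of a gene, so the leading transcripts were described as well. The leading transcript was the one with the highest mean TPM over the 6 compared libraries. Its share was compared for genes with a mean of 1 TPM or more over these libraries and a defined share in each. This left 6 members, and 2 of the 6 (*DNMT1* and *DNMT3A*) did not overlap between the stages. Among all 6816 genes that met these limits and had at least 2 listed transcripts, this held for 14.8%. *DNMT1* had 7 listed transcripts. XM_005208712.4 (5280 bases) formed 25.1%, 9.71% and 0% of the *DNMT1* level in SF, against 57.8%, 90.5% and 51.8% in PF and 3.64% in PF replicate 4. NM_182651.2 (5201 bases) formed 55.4%, 62.8% and 80.6% in SF, against 24.4%, 0% and 33.6% in PF and 88.9% in PF replicate 4. PF replicates 1 to 3 thus carried mostly the predicted model and SF, like PF replicate 4, mostly the curated one. In level, XM_005208712.4 stood at 4.92, 1.55 and 0 TPM in SF, against 19.3, 13.0 and 10.1 TPM in PF. NM_182651.2 stood at 10.9, 10.1 and 8.81 TPM in SF, against 8.15, 0 and 6.53 TPM in PF. Both models are nearly equal in length, and Salmon divides reads that fit several models by estimation, so these shares are estimates without a counting error. PF replicates 1 to 3 were also the libraries with the highest oocyte marker scores, and the part of the oocyte share in this split was not tested.

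**Figure D3:**
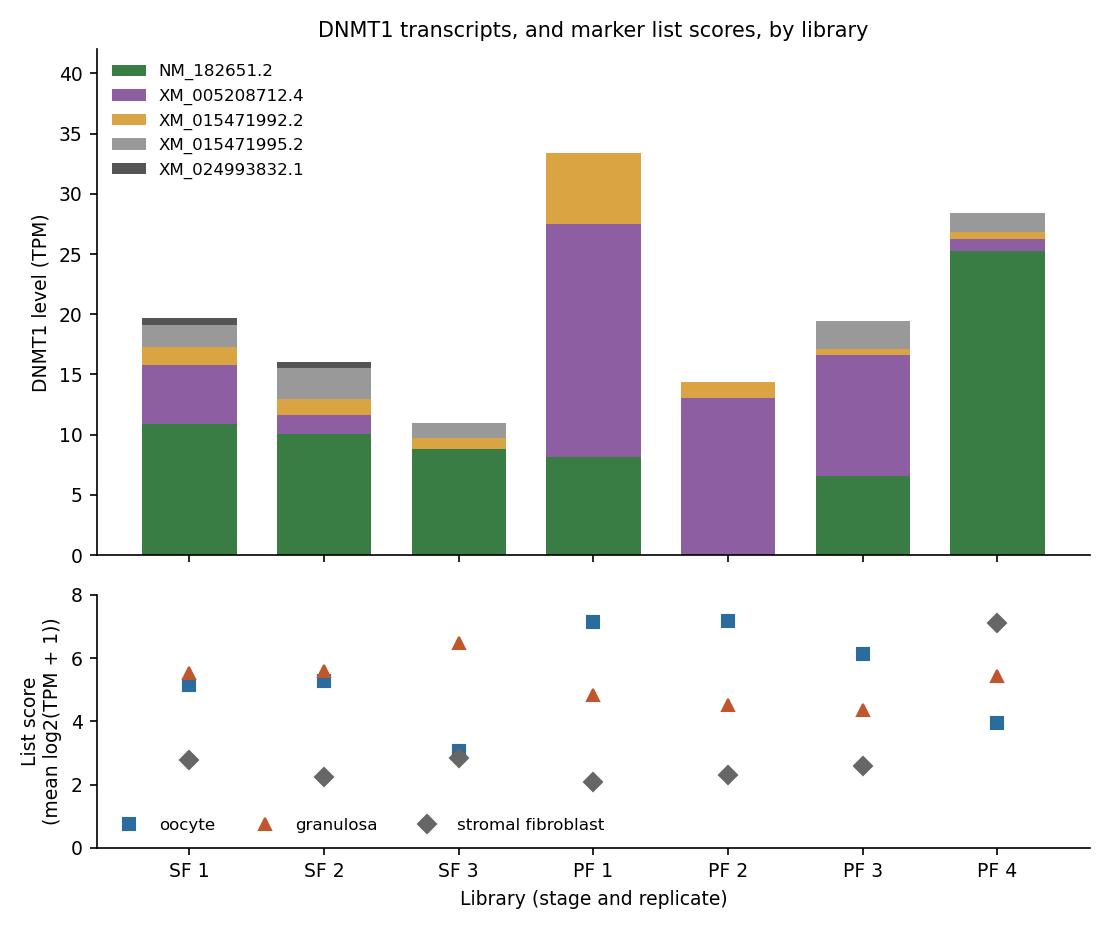
*DNMT1* level in TPM by library, stacked by RefSeq transcript (upper panel), above the marker list scores of the same libraries, as mean log2(TPM + 1) (lower panel). XM_005208712.4 reaches 10.1 to 19.3 TPM in PF replicates 1 to 3 and at most 4.92 TPM in SF, and the oocyte score is 6.14 to 7.16 in those PF libraries and 3.07 to 5.26 in SF.

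Transcript shares of the other members were less orderly. The leading *DNMT3A* model, XM_024998363.1, held 56.9%, 88.2% and 90.2% in SF, against 99.0%, 92.5% and 92.1% in PF and 60.1% in PF replicate 4, so the gap between the stages was small beside the spread in SF. *UHRF1* kept a similar split in SF and PF replicates 1 to 3, with NM_001103098.1 at 63.2% to 74.5% and 67.6% to 80.8%. In PF replicate 4 that share was 39.6%, and XM_010806982.3 led with 60.4%. *TET1* reads were given to XM_024986939.1 alone, and *DPPA3* reads to NM_001111109.2 for 98.8% or more in each library. For *KDM1B* the shares jumped between libraries of 1 stage. Its model XM_005223819.4 held 58.6% in PF replicate 1 and 0% in all other libraries.

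Other genes of the pathway were described from 7 lists, over which 76 genes were tested, 15 were called higher and 2 lower, beside the 8.14% higher and 11.0% lower among all genes. By edgeR, which called 0 of all genes, 0 of the 76 were called and 21 had an unadjusted p below 0.05. Of 8 writer partners tested, 0 were called higher and 1 lower, with a median log2 fold change of -0.51. *DMAP1*, a *DNMT1*-binding corepressor, had 65.3, 54.5 and 30.1 TPM in SF, against 174.7, 141.5 and 74.5 TPM in PF (log2 fold change -1.24 ± 0.41, DESeq2 adjusted p = 0.017). *DNMT3L*, which stimulates de novo methylation in mouse oocytes, had a count of 0 in all 3 SF libraries and in PF replicates 1 to 3, and 25 counts in PF replicate 4.

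Of 9 eraser partners, 1 was called higher and 1 lower (median 0.88). *MBD4*, a glycosylase that removes thymine mispaired at CpG sites, fell to 10.6 ± 2.97 TPM in SF, against 31.9 ± 14.7 TPM in PF (SD, n = 3 each), a log2 fold change of -1.45 ± 0.45 (DESeq2 adjusted p = 0.011). *CXXC5*, a CXXC protein reported to bind *TET2*, rose to 104 ± 36.3 TPM in SF, against 50.8 ± 17.9 TPM in PF, a log2 fold change of 1.13 ± 0.37 (DESeq2 adjusted p = 0.0164).

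Of 8 imprint protection partners, 1 was called higher and 0 lower (median 0.64). *ZNF445*, a zinc finger protein that holds imprints, stood at 7.35, 1.33 and 6.35 TPM in SF, against 1.80, 1.17 and 0.421 TPM in PF (log2 fold change 2.47 ± 0.88, DESeq2 adjusted p = 0.0313). Its stages overlapped in TPM. *ZFP57*, which binds methylated imprints with *TRIM28*, had 3.34 ± 1.74 TPM in SF and 3.70 ± 2.12 TPM in PF, and *TRIM28* had 91.3 ± 10.9 TPM in SF and 86.7 ± 25.3 TPM in PF (SD, n = 3 each).

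Another list held regulators of histone marks, chiefly methylation of histone H3, that steer de novo DNA methylation. Of 18 such genes tested, 5 were called higher and 0 lower (median 0.33). *KDM5B*, an H3 lysine demethylase whose mark opposes DNA methylation, had 33.2, 47.1 and 71.1 TPM in SF, against 16.0, 10.5 and 18.1 TPM in PF and 45.3 TPM in PF replicate 4. Its log2 fold change was 1.88 ± 0.48 (DESeq2 adjusted p = 0.0015). *KDM5C*, of the same family, had 30.6 ± 2.33 TPM in SF and 17.0 ± 1.51 TPM in PF, and *NSD3*, an H3 lysine methyltransferase, had 10.6 ± 1.12 TPM in SF and 5.45 ± 0.340 TPM in PF (SD, n = 3 each). Their log2 fold changes were 0.98 ± 0.25 and 1.08 ± 0.31 (DESeq2 adjusted p = 0.0016 and 0.0052). None of 7 methyl-CpG readers passed in DESeq2 (median 0.44), the highest mean over the 7 libraries being that of *MBD2*. It had 38.7 ± 16.1 TPM in SF, 18.3 ± 9.48 TPM in PF replicates 1 to 3 and 137.6 TPM in PF replicate 4. In PF replicates 1 to 3 its mean lay below those of *MBD1* (26.4 TPM) and *MBD3* (21.4 TPM). Of 6 genes of methyl donor supply, 1 passed as higher, *AHCYL2*, a relative of the enzyme that clears S-adenosylhomocysteine (log2 fold change 0.93 ± 0.33, DESeq2 adjusted p = 0.0286).

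Of 28 imprinted genes listed, 20 were tested, 7 were called higher and 0 lower (median 0.97), where 8.14% of all genes were called higher and 11.0% lower. *MEST*, a hydrolase-like gene read from the paternal copy in mouse and human, had 117.0, 142.7 and 247.7 TPM in SF, against 35.8, 51.0 and 58.3 TPM in PF and 109.4 TPM in PF replicate 4 (log2 fold change 1.91 ± 0.48, DESeq2 adjusted p = 0.0013). *MAGEL2*, of the Prader-Willi region in human, had 9.51, 7.94 and 10.4 TPM in SF, against 4.71, 2.61 and 1.15 TPM in PF and 3.31 TPM in PF replicate 4 (log2 fold change 1.91 ± 0.54, DESeq2 adjusted p = 0.0048). *SNRPN*, a splicing protein gene, and *PON2*, a lactonase, rose by 0.94 ± 0.31 and 1.00 ± 0.27 on the log2 scale (DESeq2 adjusted p = 0.0186 and 0.0025). *GNAS*, the most abundant of the list, had 446.0 ± 17.0 TPM in SF and 263.3 ± 55.9 TPM in PF and did not pass (DESeq2 adjusted p = 0.0622). The data give levels of RNA and say nothing of which parental copy was read.

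**Figure D4:**
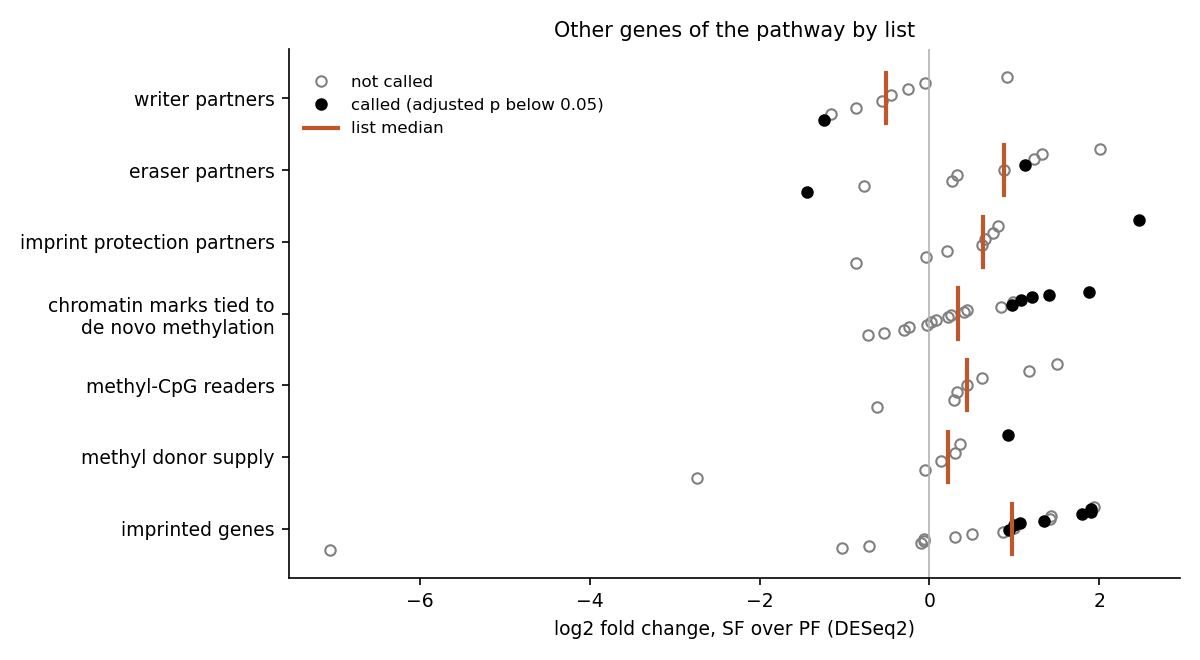
Log2 fold change, SF over PF, of each tested gene of the 7 pathway lists. Each circle is a gene, filled where the DESeq2 adjusted p was below 0.05, and the vertical bar is the median of the list. Filled circles lie to the right for imprinted genes (7 of 20) and chromatin regulators (5 of 18), and the 2 filled circles to the left are *DMAP1* and *MBD4*.

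Granulosa markers were higher in SF as given above, and their part in these calls was not tested. With granulosa scaling, *KDM5C*, *NSD3*, *CXXC5*, *AHCYL2*, *PON2* and *SNRPN* had negative log2 fold changes (-0.70, -0.62, -0.49, -0.77, -0.63 and -0.75). *KDM5B*, *MEST*, *MAGEL2* and *ZNF445* stayed positive without passing (0.13, 0.12, 0.20 and 0.73). With oocyte scaling, *DMAP1* (1.21) and *MBD4* (1.10) were positive. When PF replicate 4 was kept, *MAGEL2* (DESeq2 adjusted p = 0.0173) and *ZNF445* (0.0385) remained called among the 12 named genes. In that library *KDM5C* (51.0 TPM) and *GNAS* (593.4 TPM) lay above each SF library. *CXXC5* (134.1 TPM), *PON2* (70.1 TPM) and *DMAP1* (51.5 TPM) lay within the SF range. *NSD3* (7.89 TPM), *SNRPN* (172.1 TPM), *AHCYL2* (3.56 TPM) and *ZNF445* (0.528 TPM) lay below each SF library, and *MBD4* (16.1 TPM) above.

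Calls of *KDM5B*, *KDM5C*, *MEST*, *PON2* and *MAGEL2* held with each of the 6 libraries left out in turn. The call of *NSD3* was lost without PF replicate 2 (DESeq2 adjusted p = 0.05), and that of *DMAP1* without SF replicate 2, PF replicate 1 or PF replicate 2 (0.0832, 0.111 and 0.090). For *MBD4* it was lost without SF replicate 2, SF replicate 3, PF replicate 1 or PF replicate 2 (0.0648, 0.0532, 0.0905 and 0.0731). For *CXXC5* and *SNRPN* it was lost without SF replicate 1, SF replicate 2 or PF replicate 1 (0.0703, 0.0586 and 0.0548 for *CXXC5*, and 0.0616, 0.0718 and 0.0831 for *SNRPN*). *ZNF445* lost it without SF replicate 1, SF replicate 3, PF replicate 2 or PF replicate 3 (0.146, 0.153, 0.0887 and 0.0599). *AHCYL2* lost it without SF replicate 2 or 3 (0.158 and 0.0848) and without PF replicate 1, 2 or 3 (0.0748, 0.10 and 0.0775).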

How the data were processed

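The study amplified cDNA with the SMART-Seq v4 kit, which marks neither strand nor molecule, and quantified paired reads, trimmed with Trim Galore and fastp, with Salmon against the ARS-UCD1.3 transcriptome. Per the file headers, the authors deposited an estimated count, a TPM and an effective length per transcript (RefSeq) for all 7 libraries. By accession, 50205 of 76123 transcripts (66.0%) were matched to 23704 genes in a RefSeq table of ARS-UCD2.0, used for names alone since the builds differ, so no coordinates are given. Unmatched transcripts held 9.71% to 10.7% of the counts, so reads on an unmatched model are missing from the gene sums. Counts and TPM were summed per gene, and counts were rounded. No libraries of a group were duplicates (their counts differed with a chi-square per degree of freedom of 102 to 658).

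Wald tests in DESeq2 1.42.0 (R 4.3.3) were run on 3 SF and 3 PF libraries, with median-of-ratios size factors and Benjamini-Hochberg adjusted p below 0.05 over 15056 genes. Intervals at 95% are the estimate with its normal error. As alternatives, edgeR 4.0.16 was run with its quasi-likelihood fit and limma 3.58.1 on log2 TPM with a pseudocount of 1 or 0.1 (with and without a minimum of 1 TPM in 3 libraries). Further ones were TMM factors, a transcript length offset, size factors from marker lists, a minimum of 10 counts in 3 libraries, PF replicate 4 added, a replicate block, a library number covariate, and leave-one-out fits. Members and lists were chosen with earlier results of these data known. Named genes were all members, of each pathway list the 3 genes with the smallest adjusted p among those called or, with none called, the most abundant one, the 3 most abundant imprinted genes, and the 2 genes most like each member. *DNMT3L*, *ZFP57*, *TRIM28*, *MBD1* and *MBD3* were added after their values were seen. Summaries used Python 3.11.15, numpy 2.4.6, pandas 2.3.3, scipy 1.17.1 and matplotlib 3.10.9.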

Additional observations from a re-analysis of the deposited data

Results flagged for a closer look

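The *TET2* level in PF replicate 2, 0.628 TPM, stood far below those of the other 3 PF libraries, which lay between 5.86 and 6.35 TPM. Its gap to the nearest of them, as a share of the range of the 4 PF values, exceeded the critical value of Dixon's test. The 10 members were checked in this way in the PF libraries, and chance marks about 1 in 20 groups.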

How the results depend on the processing

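Against 2 members called (0 higher, 2 lower) and 17 of 76 pathway genes, edgeR called 0 and 0 (2 members and 21 pathway genes at an unadjusted p below 0.05), limma on log2(TPM + 1) 1 lower and 2, limma on log2(TPM + 0.1) 0 and 0 (2 and 15 unadjusted) and limma without a filter 0 and 0 (2 and 16 unadjusted). Oocyte scaling gave 5 members (4 higher, 1 lower) and 63 pathway genes, granulosa scaling 6 lower and 39, all 7 libraries 1 lower and 4, and the library number 1 lower. The 2 filtered limma fits tested 8 members (not *DNMT3B* or *TET1*) and 73 pathway genes. An unadjusted p below 0.05 was held by 3844 of 14293 genes in edgeR. In limma it was held by 3689 of 13150 on log2(TPM + 0.1) and 4043 of 19028 without a filter. Leaving out 1 library gave 1 to 3 members called, all lower, and 8 to 27 pathway genes. Over all genes the counts were 2876 in the DESeq2 test, 0 by edgeR, 792, 2 and 0 by the 3 limma settings, 9044 and 8444 under oocyte and granulosa scaling, 858 with all 7 libraries and 1887 to 3947 with a library left out. With the replicate block 4 members were called, all lower, *UHRF1* (DESeq2 adjusted p = 0.0492) and *KDM1B* (0.0324) being added. The sources do not say whether equal replicate numbers pair the samples. Deviations of same-numbered libraries correlated at 0.26, -0.04 and 0.40, and those of differently numbered ones at -0.42 to 0.26, which does not settle it. The log2 fold change of *DNMT1* (2.06), *DNMT3B* (1.76), *UHRF1* (1.29), *TET3* (1.33), *KDM1B* (0.61) and *DPPA3* (0.60) turned under oocyte scaling, and that of *DNMT3A* (-1.41) and *TET2* (-0.33) under granulosa scaling. *DNMT3A* also turned with all 7 libraries (-0.0592), and ranged from -0.15 to 0.53 with a library left out, as *DNMT3B* did from -1.60 to 0.25. The scalings shift all genes by construction; for the other changes the cause was not tested. *DNMT3B*, *TET1* and *CTCFL* rested on the fewest counts, at most 105, 256 and 230 estimated counts in a library.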

Other observations

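Genes with a library pattern like that of each member were listed by Pearson's r of log2(TPM + 1) over the 7 libraries, among 8125 genes with a mean of 10 TPM or more. These are descriptions over points that share library and cell mix. *UHRF1* was most like *ANKRD16* (0.99) and *OGDHL* (0.98), and *DNMT1* most like *ACVR1*, a BMP receptor (0.98), and *SMARCAD1*, a chromatin remodeller (0.97). *DNMT3A* was most like *TMX3* and *DEXI* (0.93 each), and *DNMT3B* most like *COPRS* (0.98) and the entry listed as *MIR22* (0.97). *TET1* was most like *RPS29*, a ribosomal protein gene (0.96), and *NMB*, a neuropeptide gene (0.95). *TET2* was most like *RMND5A* and *RBPJ*, the DNA-binding effector of Notch signalling (0.98 each). *RBPJ* had 55.1, 93.4 and 86.7 TPM in SF, against 51.9, 22.6 and 59.5 TPM in PF and 48.7 TPM in PF replicate 4. *TET3* was most like *EPB41L4B* and *CDK7*, a kinase of transcription initiation (0.99 each). *KDM1B* was most like *MTFR1* and *ORAI2*, a calcium channel subunit (0.99 each), and *DPPA3* like *DRC7* and *CYFIP2* (0.99 each). *DRC7* had 12.8, 18.4 and 2.06 TPM in SF, against 50.4, 65.5 and 30.3 TPM in PF, and was listed at 0 in PF replicate 4. *CTCFL* was most like the entry listed as *MIR143* (0.99) and *LOC781112* (0.98). *LOC781112* had 4.41, 5.70 and 5.19 TPM in SF, against 93.2, 107.7 and 24.4 TPM in PF and 6.91 TPM in PF replicate 4.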
